A study of Mus musculus with 24 samples.

Results

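Prostaglandins and leukotrienes are short-lived lipid mediators made from arachidonic acid, and the 10 genes described here cover their main steps in mouse macrophages. They were taken by symbol from the count tables, 10 of the 23420 gene symbols listed in each of 24 polyA+ RNA-seq libraries, and all were found. The libraries form 8 BMDM groups of 2 and 2 groups of Th2 cells of 4. BMDMs are macrophages grown from bone marrow in L929-conditioned medium and M-CSF. KLA is Kdo2-lipid A, the lipid part of endotoxin that activates TLR4. In the Tet cohort, WT and TET iTKO BMDMs (Tet1, Tet2 and Tet3 fl/fl with CreERT2 and the Rosa26-EYFP LSL reporter) were sampled at 0 h and after 6 h of KLA, and in the Tdg cohort WT and TDG iKO BMDMs (Tdg fl/fl with CreERT2 and the Rosa26-H2B-EGFP/GPI-mCherry LSL reporter) at the same times. Th2 cells, WT or TDG iKO, were differentiated from naive CD4+ T cells of spleen and lymph nodes with IL-4 and anti-IFN-γ and were then expanded in IL-2. All mice were adults on a C57BL/6 background, and knockout and control mice alike received tamoxifen. CreERT2 was not limited to macrophages, and tamoxifen was given to the mice before the cells were cultured.

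Cytosolic phospholipase A2 (Pla2g4a) frees arachidonic acid from membranes, and the cyclooxygenases Ptgs1 and Ptgs2 turn it into prostaglandin H2. Prostaglandin E synthases (Ptges, the inducible microsomal enzyme, and Ptges2) then make prostaglandin E2, which acts on cells through receptors that include Ptger2 and Ptger4. In the other branch, the lipoxygenase Alox5 with its membrane partner Alox5ap makes leukotriene A4, which Ltc4s conjugates with glutathione to give leukotriene C4. Macrophages are known to induce Ptgs2 and Ptges after TLR4 stimulation, whereas Ptgs1 is usually regarded as the constitutive cyclooxygenase.

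The 24 libraries held 4982950 to 26657729 counts assigned to genes, and the shallowest was WT BMDM 0 h replicate 2 of the Tdg cohort. The 8 macrophage markers summed to at least 21720 CPM (counts scaled to the assigned total of each library) in every BMDM library and to at most 58.6 CPM in Th2 cells, where Csf1r, Mertk and C1qa were at 0. The 8 T cell markers summed to 1962 to 3042 CPM in Th2 cells and to at most 27.9 CPM in BMDMs. Counts over whole genes could not check the genotypes. For the TET genes the deleted exons are not separated: Tet2 stood at 36.6 to 43.1 CPM in WT and 52.6 to 54.7 CPM in TET iTKO BMDMs at 0 h. Tdg was at or below 0.813 CPM in every library, WT libraries included, which separation of exons does not bear on. The cause of these low Tdg counts was not tested. Genotypes are therefore those of the labels. Replicates 3 and 4 of each Th2 genotype differed by little more than counting noise and were counted as 1 sample.

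The deposited study examined a latent enhancer near Ptgs2 in BMDMs, and the stretch between its amplicon primers is shown because it is the regulatory region that the study tied to a member of the pathway. It lies at chr1:152050324-152050591 of mm9 on the plus strand, 268 bases long, in intergenic sequence that overlaps no annotated gene. Its first base is 103070 bases from the annotated start of Ptgs2 and 95184 bases past its end. The 5 CpGs are in capitals.
Ptgs2 enhancer amplicon: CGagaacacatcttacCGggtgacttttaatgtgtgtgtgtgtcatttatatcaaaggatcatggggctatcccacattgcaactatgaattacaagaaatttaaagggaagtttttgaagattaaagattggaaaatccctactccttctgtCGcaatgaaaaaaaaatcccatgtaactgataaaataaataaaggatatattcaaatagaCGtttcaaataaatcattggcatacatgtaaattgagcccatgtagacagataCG
Promoters of the cyclooxygenases and of Ptges are shown because these 3 genes carry the largest differences of the KLA and TET comparisons in BMDMs. Each is the 250 bases before the start site in RefSeq (GRCm38.p6), 5′ to 3′ on the gene's strand, with matches to the C/EBP letters TTNNGNAA on either strand in capitals. Ptgs1 lies at chr2:36230176-36230425 on the plus strand, Ptgs2 at chr1:150099781-150100030 on the plus strand and Ptges at chr2:30903298-30903547 on the minus strand.
Ptgs1: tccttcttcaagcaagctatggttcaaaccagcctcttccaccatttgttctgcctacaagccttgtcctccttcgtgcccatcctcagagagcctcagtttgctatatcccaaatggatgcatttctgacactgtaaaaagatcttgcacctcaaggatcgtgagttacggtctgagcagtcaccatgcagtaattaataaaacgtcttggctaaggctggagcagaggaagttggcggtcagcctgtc
Ptgs2: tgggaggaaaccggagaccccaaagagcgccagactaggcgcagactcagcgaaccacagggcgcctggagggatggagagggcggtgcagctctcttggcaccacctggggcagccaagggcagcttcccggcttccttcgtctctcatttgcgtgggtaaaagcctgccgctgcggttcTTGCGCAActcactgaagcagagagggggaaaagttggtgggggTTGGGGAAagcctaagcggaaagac
Ptges: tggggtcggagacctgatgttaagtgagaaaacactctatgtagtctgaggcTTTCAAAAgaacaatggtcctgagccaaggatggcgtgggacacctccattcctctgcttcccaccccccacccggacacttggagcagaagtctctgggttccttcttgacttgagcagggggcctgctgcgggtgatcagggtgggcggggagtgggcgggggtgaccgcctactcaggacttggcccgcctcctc

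The Ptgs2 window held 2 C/EBP matches, the Ptges window 1 and the Ptgs1 window 0, and 36.8% of 32851 RefSeq promoter windows of this length held at least 1. Of the other members, 2 matches each were found for Ptger2 and for 1 of the windows of Pla2g4a, 1 for Ptges2, and 0 for Alox5, Ltc4s and Ptger4. The other motifs searched, the NF-κB consensus, the CRE letters TGACGTNA, the AP-1 letters TGANTCA and the TATA letters TATAAA, were in 3.9%, 2.52%, 6.75% and 7.59% of all windows and in 0 windows of the 9 members matched in the promoter table used here, which are all but Alox5ap. The amplicon held 1 match to the NF-κB consensus and 1 to the TATA letters, the latter on the minus strand. The TATA letters were searched on both strands in the amplicon but only on the gene's strand in the promoters. These matches describe letters only. In the promoters, bases further upstream or past the start site were not searched, so 0 matches does not mean that a gene lacks the motif.

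Levels were compared between genes as RPKM, that is per kilobase of annotated exon and scaled to the assigned counts of each library. Alox5ap was the most abundant of the 10 genes in every BMDM group at 0 h, at 297 ± 11 RPKM (SD, n = 2 here and for all BMDM groups) in WT of the Tet cohort, and 662 ± 12.2 RPKM in WT of the Tdg cohort. Ptger4, Ptger2, Ptges, Pla2g4a and Ptges2 followed in WT of the Tet cohort at 7.72 ± 0.544, 7.24 ± 0.116, 7.02 ± 0.335, 6.82 ± 0.0248 and 6.12 ± 0.802 RPKM, and neighbours in that order were within or near the spread of their 2 libraries. Ltc4s (0.650 ± 0.204 RPKM), Ptgs2 (0.286 ± 0.0391 RPKM), Ptgs1 (0.245 ± 0.00802 RPKM) and Alox5 (0.105 ± 0.0526 RPKM) were low. Resting BMDMs held abundant transcript of the lipoxygenase partner Alox5ap and little of Alox5 itself.

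After 6 h of KLA the order changed. Ptges led in WT of the Tet cohort at 190 ± 23.6 RPKM, ahead of Alox5ap at 153 ± 20.5 RPKM, while in WT of the Tdg cohort Alox5ap (316 ± 85.1 RPKM) remained above Ptges (194 ± 14.6 RPKM). Ptgs2 took the third place in every BMDM group at 6 h, at 23.2 ± 8.22 RPKM in WT and 73.0 ± 26.8 RPKM in TET iTKO of the Tet cohort and at 50.6 ± 0.644 RPKM in WT and 55.9 ± 16.9 RPKM in TDG iKO of the Tdg cohort. In WT Th2 cells the receptors Ptger4 (9.74 ± 1.14 RPKM) and Ptger2 (5.33 ± 3.01 RPKM) and the synthase Ptges2 (4.96 ± 1.19 RPKM, n = 3, with replicates 3 and 4 as 1 sample) led instead. The plot of RPKM by library shows these shifts for all 10 genes.

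**Figure D1:**
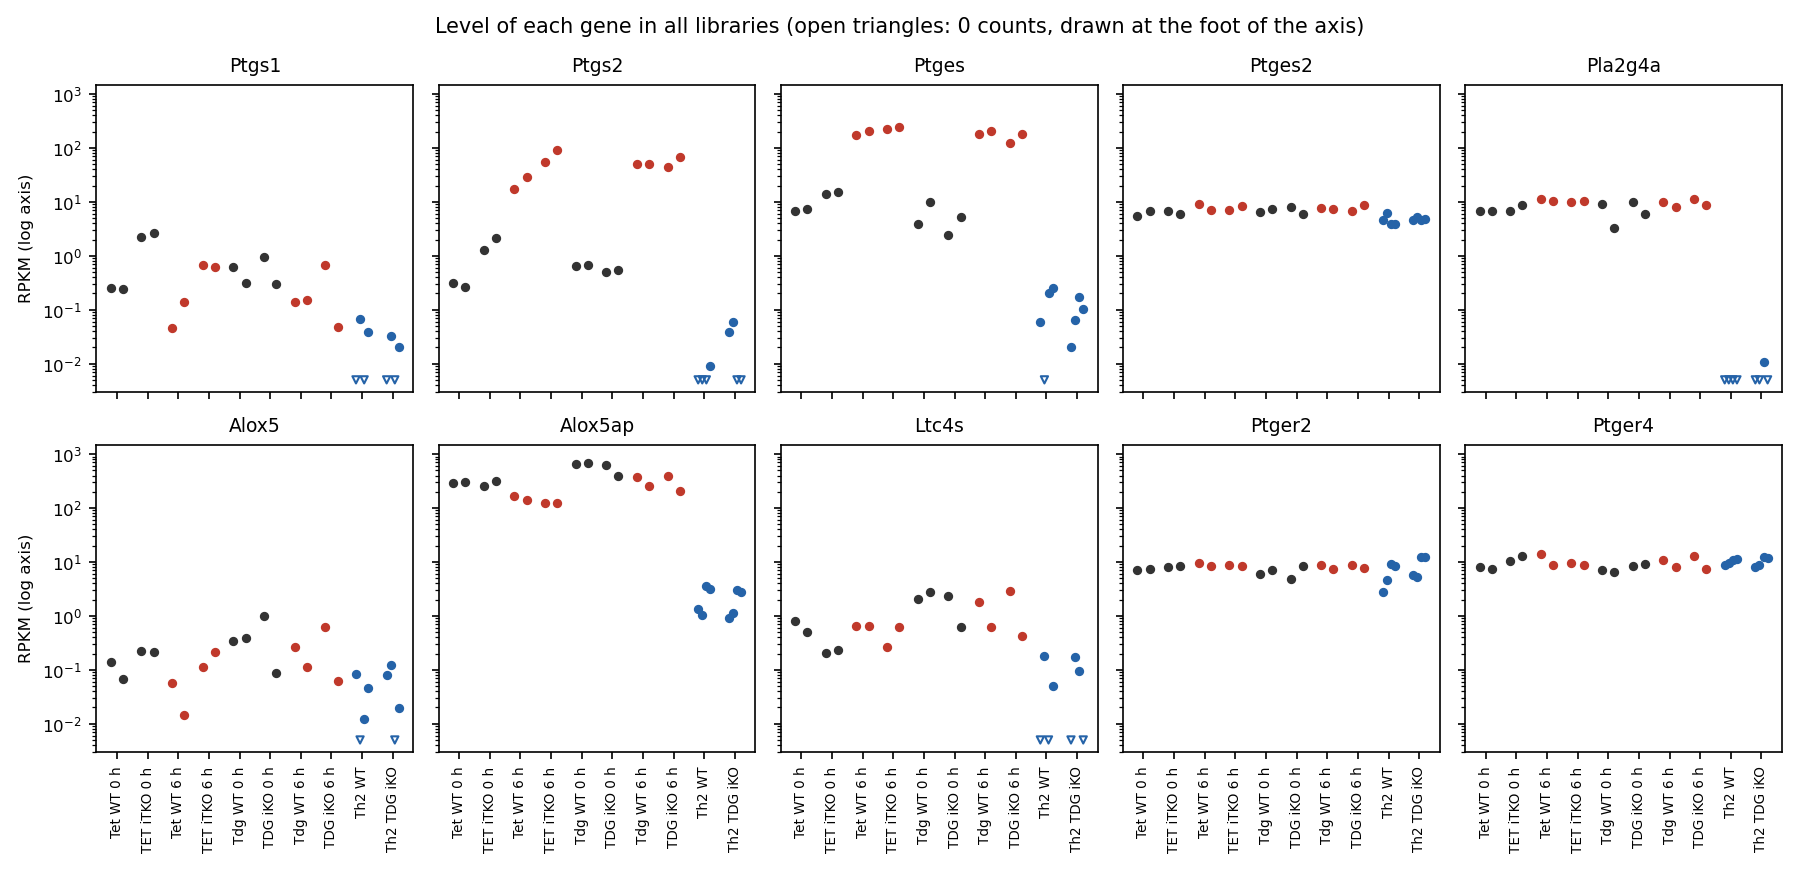
Level of each of the 10 genes (RPKM, log axis) in all 24 libraries by group: black points are BMDMs at 0 h, red points BMDMs after 6 h of KLA and blue points Th2 cells, and open triangles are libraries with 0 counts. Ptgs2 and Ptges rise steeply from black to red in all 4 BMDM genotype and cohort groups. Alox5ap stays between 124.5 and 670.5 RPKM in BMDMs, and the ranges of Ptger2 and Ptger4 overlap between the cell types.

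KLA raised Ptgs2 and Ptges steeply in all 4 BMDM genotype and cohort groups, and Alox5ap fell in the Tet cohort. The comparison asks how the macrophages responded to endotoxin. Of the 10 genes, 5 rose and 1 fell in WT BMDMs of the Tet cohort (DESeq2, adjusted p under 0.05), where 24.1% of all tested genes were called, 13.1% higher and 11.1% lower. Counts below are normalised within each cohort, and log2 fold changes are given with their SE. For Ptgs2 the 2 WT libraries had 21.1 and 17.6 normalised counts at 0 h and 1249.8 and 2187 at 6 h, a log2 fold change of 6.48 ± 0.53 or 89.2-fold (adjusted p = 4.34e-33). Ptges went from 434 and 469 to 11858 and 14825 normalised counts, a log2 fold change of 4.88 ± 0.13 or 29.5-fold, with an adjusted p that the software returned as 0. For both genes the 6 h libraries lay far above the 0 h libraries with no overlap.

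Pla2g4a, which supplies the substrate, went from 711 and 714 to 1245 and 1196 normalised counts in the same WT cells (log2 fold change 0.78 ± 0.14, adjusted p = 9.60e-07). Ptger4 went from 877 and 801 to 1591 and 1056 (0.66 ± 0.18, adjusted p = 0.00157), and Ptger2 from 429 and 443 to 615 and 576 (0.45 ± 0.16, adjusted p = 0.0204). Both receptor calls rested on single libraries: Ptger4 was not called without WT 6 h replicate 1 (0.33, adjusted p = 0.216) or WT 0 h replicate 2 (0.59, adjusted p = 0.0687), and Ptger2 was not called without any of the 4 WT libraries, the adjusted p ranging from 0.0767 to 0.185. Alox5ap fell from 4149.9 and 4413 to 2560.4 and 2219 normalised counts, 1.79-fold lower (log2 fold change -0.84 ± 0.13, adjusted p = 4.19e-10). Ptges2 had a log2 fold change of 0.52 ± 0.23 (adjusted p = 0.0844) and Ptgs1 of -1.27 ± 0.62 (adjusted p = 0.130). Alox5 and Ltc4s had at most 9 counts in any WT library of the Tet cohort and were not called.

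In TET iTKO BMDMs 3 of the 9 members with an adjusted p rose and 2 fell, where 24.4% of all tested genes were called, 12.8% higher and 11.6% lower. Ptgs2 went from 84.9 and 139 to 3778 and 6480.3 normalised counts (log2 fold change 5.51 ± 0.49, 45.6-fold, adjusted p = 5.47e-28), and Ptges from 893 and 918 to 15093 and 16433 (4.12 ± 0.12, 17.4-fold, adjusted p = 1.096e-235). Ptgs1, the constitutive cyclooxygenase, fell from 141 and 162 to 43.5 and 41.8 normalised counts, 3.55-fold lower (log2 fold change -1.83 ± 0.43, adjusted p = 0.000156). Alox5ap fell with a log2 fold change of -1.09 ± 0.13 (adjusted p = 1.78e-16). Pla2g4a rose by 0.51 ± 0.15 (log2, adjusted p = 0.00287), a call that was lost without TET iTKO 0 h replicate 1 (0.35, adjusted p = 0.146) or 6 h replicate 2 (0.48, adjusted p = 0.0592). Ptger4 (-0.26 ± 0.18) and Ptger2 (0.16 ± 0.16) did not pass the test.

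The Tdg cohort gave 2 called members of 10 in each genotype, both higher, against 8.6% of all tested genes in WT (5.29% higher, 3.32% lower) and 7.08% in TDG iKO (4.27% higher, 2.81% lower). Ptgs2 had 26.6 and 32.2 normalised counts in WT at 0 h and 2248 and 2552 at 6 h (log2 fold change 6.38 ± 0.43, 83.2-fold, adjusted p = 7.01e-46), and 20.2 and 23.1 against 1904 and 3458 in TDG iKO (6.94 ± 0.41, 123-fold, adjusted p = 1.44e-61). Ptges had 155 and 451 against 7807 and 9686 in WT (4.86 ± 0.55, 29.1-fold, adjusted p = 2.14e-16), and 90.8 and 216 against 5096 and 8645.5 in TDG iKO (5.48 ± 0.54, 44.7-fold, adjusted p = 5.47e-21). edgeR called the same 2 genes in both genotypes. The 2 libraries of a group lay further apart for Ptges at 0 h than in the Tet cohort, and its value in WT was 4.27 without WT 0 h replicate 1 and 5.82 without WT 0 h replicate 2, and in TDG iKO 6.24 without TDG iKO 0 h replicate 2.

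Alox5ap in WT of the Tdg cohort had 5752 and 6788 normalised counts at 0 h and 3595 and 2727 at 6 h, without overlap, and a log2 fold change of -0.99 ± 0.36 (adjusted p = 0.0619). The call was made without TDG iKO 6 h replicate 1 (-0.99, adjusted p = 0.0418) or replicate 2 (-0.98, adjusted p = 0.0419), libraries that enter only through the shared spread. In TDG iKO it was -0.63 ± 0.36 (adjusted p = 0.465). Pla2g4a had a log2 fold change of 0.67 ± 0.44 in WT, which was called only without WT 0 h replicate 1 (1.47, adjusted p = 0.00409), and of 0.52 ± 0.44 in TDG iKO. Ptger4, Ptger2 and Ptges2 had log2 fold changes of 0.54, 0.43 and 0.21 in WT and of 0.35, 0.50 and 0.38 in TDG iKO, all short of the threshold.

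**Figure D2:**
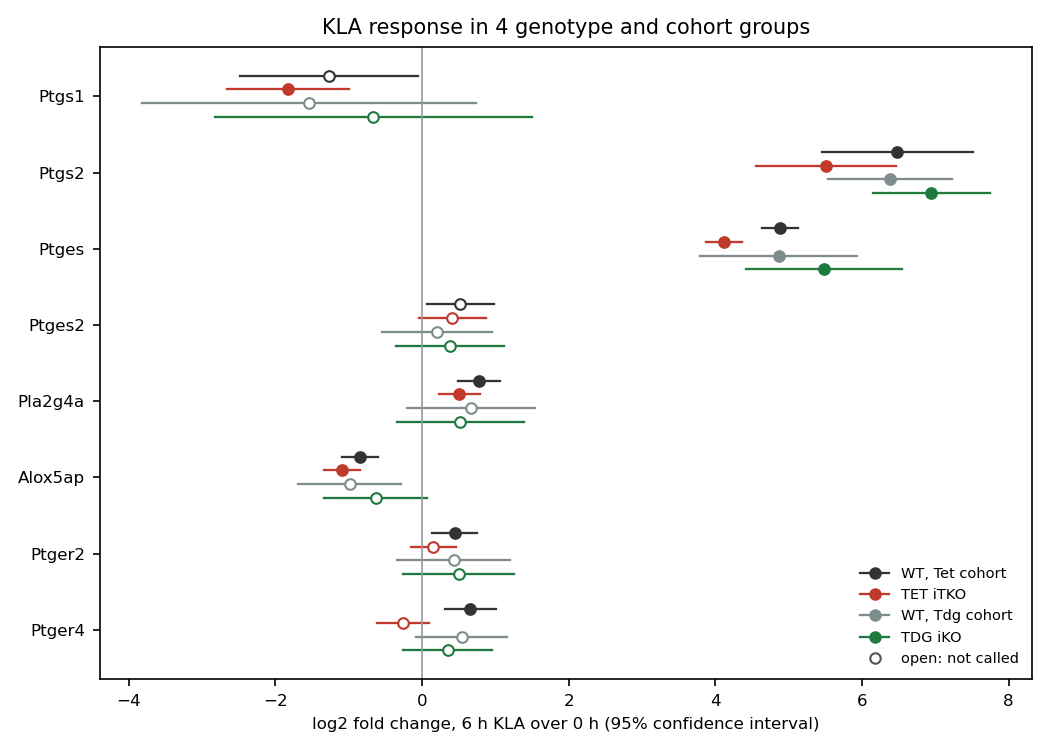
KLA response of 8 members (log2 fold change, 6 h over 0 h, with 95% confidence interval) in WT and TET iTKO BMDMs of the Tet cohort and WT and TDG iKO BMDMs of the Tdg cohort, with open points for genes that were not called. Ptgs2 lies between 5.51 and 6.94 and Ptges between 4.12 and 5.48 in all 4, while the other 6 genes lie between -1.83 and 0.78.

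Loss of TET raised both cyclooxygenases and Ptges in resting BMDMs. At 0 h, 4 of the 10 genes were higher and 0 lower in TET iTKO than in WT, where 7.5% of all tested genes were called, 4.38% higher and 3.12% lower. Ptgs1 had 15.9 and 15.3 normalised counts in WT and 141 and 162 in TET iTKO, a log2 fold change of 3.28 ± 0.47 (95% confidence interval 2.37 to 4.2, 9.74-fold, adjusted p = 4.11e-10). Ptgs2 had 21.1 and 17.6 in WT and 84.9 and 139 in TET iTKO (2.54 ± 0.53, interval 1.5 to 3.59, 5.84-fold, adjusted p = 9.37e-05). Ptges had 434 and 469 in WT and 893 and 918 in TET iTKO (1.00 ± 0.13, interval 0.74 to 1.26, 2.00-fold, adjusted p = 1.18e-11). For all 3 genes both TET iTKO libraries lay above both WT libraries, and the calls held without any single library.

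The receptor Ptger4 had 877 and 801 normalised counts in WT and 1098 and 1342 in TET iTKO at 0 h (log2 fold change 0.54 ± 0.18, 1.46-fold, adjusted p = 0.0368). This call was lost in edgeR (adjusted p = 0.104) and without WT 0 h replicate 1 or 2, TET iTKO 0 h replicate 2 or either TET iTKO 6 h library (adjusted p from 0.0556 to 0.725). Pla2g4a (0.11, interval -0.18 to 0.39), Ptger2 (0.16, interval -0.15 to 0.46), Ptges2 (-0.01) and Alox5ap (-0.10, interval -0.34 to 0.15) did not pass the test. Alox5 had 9 and 6 counts in WT and 12 and 15 in TET iTKO, and Ltc4s 9 and 8 against 2 and 3, both too few for a call at this depth. The median log2 fold change of the 10 genes was 0.35, beside 0.01 over all tested genes.

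Sums of several lists of markers of other cells differed between the same groups, although single markers did not all do so. The 9 neutrophil and granulocyte precursor markers found in the files summed to 31.2 to 58.9 CPM in WT at 0 h. In TET iTKO at 0 h they summed to 74.0 to 163 CPM, and Retnlg was at 0 in WT. Of these, Mpo (4.74 to 15.9 CPM in WT, 7.76 to 32.1 in TET iTKO) overlapped between the genotypes. So did Elane (2.27 to 5.16, 1.98 to 6.67) and Prtn3 (2.6 to 5.35, 4.79 to 14.2). S100a8 (16.4 to 17.7, 32.7 to 48), S100a9 (4.68 to 13.2, 23 to 47.8) and Ltf (0.325 to 1.07, 2.97 to 12.3) did not. Camp, Retnlg and Cxcr2, each at most 1.21 CPM, did not either. The 4 B cell markers summed to 1.49 to 1.82 and 5.48 to 21.8 CPM, the 5 fibroblast markers to 10.9 to 13.8 and 32.9 to 38.0 CPM, nearly all of it Dcn (12.6 and 9.77 in WT, 29.3 and 36.8 in TET iTKO) and with Pdgfra at 0 in TET iTKO, and the 6 dendritic cell markers to 0.195 to 0.233 and 1.14 to 1.21 CPM. The 8 mast cell and basophil markers summed to 1.95 to 3.07 CPM in WT and 3.35 to 6.79 CPM in TET iTKO. Cpa3, Fcer1a, Ms4a2 and Tpsb2 were at 0 in TET iTKO, and Mcpt8 and Tpsb2 in WT. Hdc had 0.0649 to 0.837 CPM in WT and 2.13 to 3.1 in TET iTKO, and Kit 1.75 to 2 and 1.22 to 2.18. Gata2 had 0 to 0.186 and 0 to 0.977, and Mcpt8 reached 0.517 in TET iTKO. The 5 monocyte and progenitor markers summed to 156 to 167 and 159 to 256 CPM. The macrophage markers summed to at least 26250 CPM in WT and at most 22360 CPM in TET iTKO, with Lyz2, Cd68, C1qa and Mertk lower in both TET iTKO libraries, whereas Csf1r (1402 and 1410 in WT, 1571 and 1736 in TET iTKO), Emr1 (2934 and 2672, 3161 and 3416) and Cd14 (91.3 and 76.5, 208 and 333.8) were higher. The part of these cells in the differences was not tested, and in bulk samples a change in the number of cells of a type and in RNA per cell cannot be told apart.

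**Figure D3:**
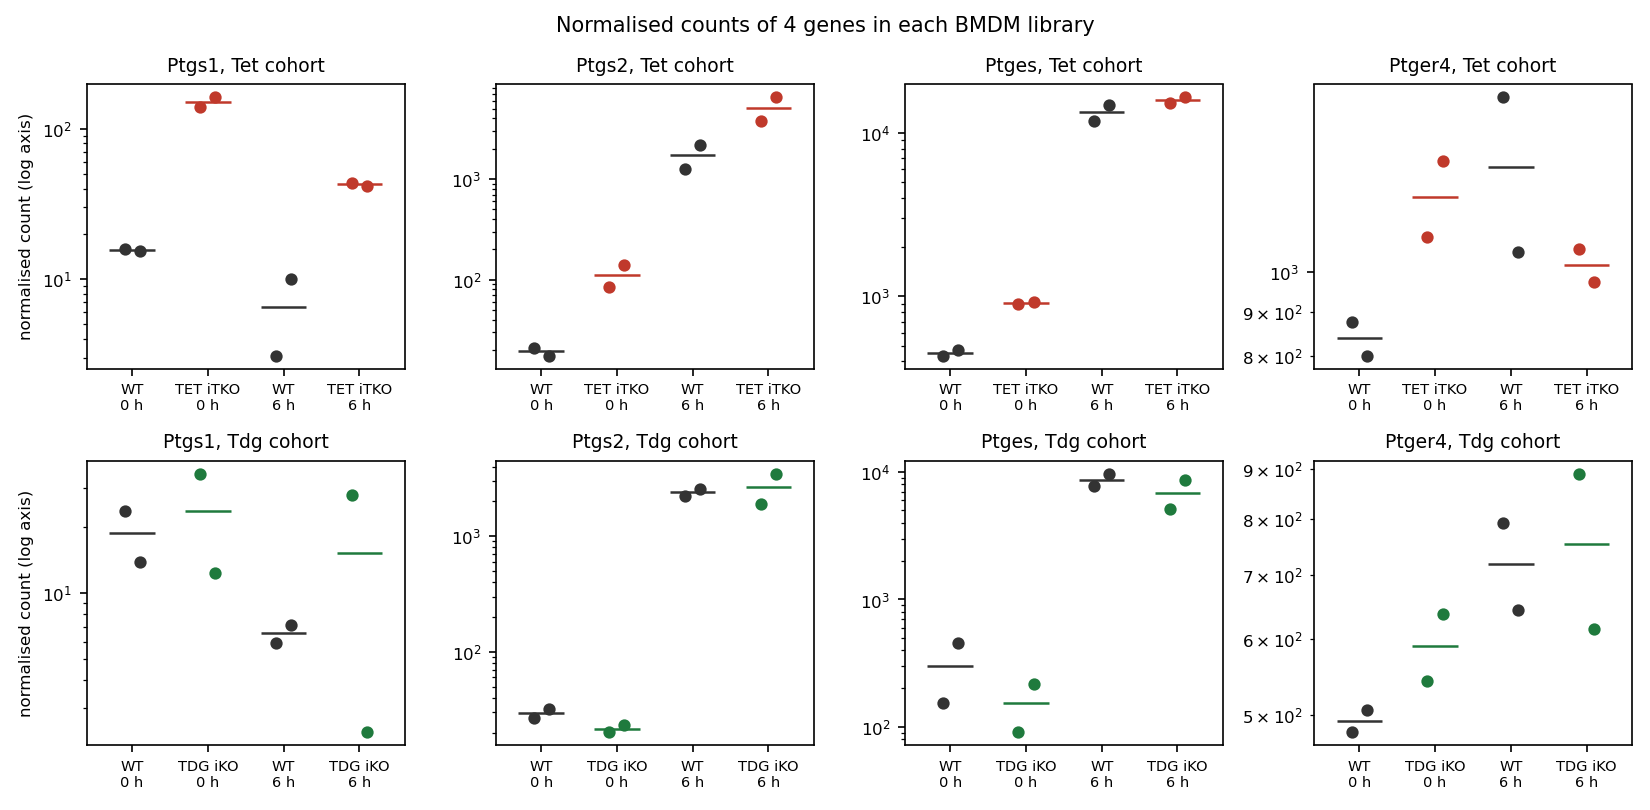
Normalised counts (log axis) of Ptgs1, Ptgs2, Ptges and Ptger4 in each BMDM library of the Tet cohort (top) and Tdg cohort (bottom), with a line at the mean of each group of 2. In the Tet cohort the TET iTKO points at 0 h lie above WT for all 4 genes, with 141 and 162 against 15.9 and 15.3 for Ptgs1, whereas none of the 4 was called between TDG iKO and WT.

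After 6 h of KLA both cyclooxygenases remained higher in TET iTKO, and Ptges no longer differed beyond the threshold. Of the 10 genes 2 were called, both higher, where 6.58% of all tested genes were called, 3.24% higher and 3.34% lower. Ptgs1 had 3.09 and 9.93 normalised counts in WT and 43.5 and 41.8 in TET iTKO (log2 fold change 2.73 ± 0.59, interval 1.57 to 3.88, 6.62-fold, adjusted p = 0.000221). Without WT 6 h replicate 1 it was 2.10 and not called (adjusted p = 0.0617), and without WT 6 h replicate 2 it was 3.78. Ptgs2 had 1249.8 and 2187 in WT and 3778 and 6480.3 in TET iTKO (1.58 ± 0.48, interval 0.64 to 2.51, 2.98-fold, adjusted p = 0.0197). The groups did not overlap for either gene, yet the spread within a group was wide for Ptgs2, and its call was lost without WT 6 h replicate 1 (1.23, adjusted p = 0.271), TET iTKO 6 h replicate 2 (1.13, adjusted p = 0.418) or WT 0 h replicate 2 (1.58, adjusted p = 0.0510), and in a fit of only the 4 libraries compared (adjusted p = 0.0736).

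Ptges had 11858 and 14825 normalised counts in WT and 15093 and 16433 in TET iTKO at 6 h (0.24 ± 0.12, interval 0.01 to 0.48, adjusted p = 0.293). Alox5ap had 2560.4 and 2219 against 1855 and 1895 (-0.35 ± 0.13, adjusted p = 0.0780), and Ptger4 1591 and 1056 against 1063 and 975 (-0.38 ± 0.18, adjusted p = 0.247). Without WT 6 h replicate 2 these 3 genes were called as well (0.41, -0.45 and -0.64, adjusted p = 0.0199, 0.0483 and 0.0104). Pla2g4a, Ptger2 and Ptges2 had log2 fold changes of -0.16, -0.14 and -0.13. The neutrophil markers summed to 38.8 to 41.0 CPM in WT and 78.1 to 124.5 CPM in TET iTKO at 6 h, the B cell markers to 1.72 to 2.37 and 3.83 to 18.8 CPM and the fibroblast markers to 17.95 to 20.5 and 57.0 to 62.9 CPM. The mast cell and basophil markers summed to 2.20 to 3.94 CPM in WT and 4.49 to 9.77 CPM in TET iTKO. The part of all these cells in the result was not tested.

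**Figure D4:**
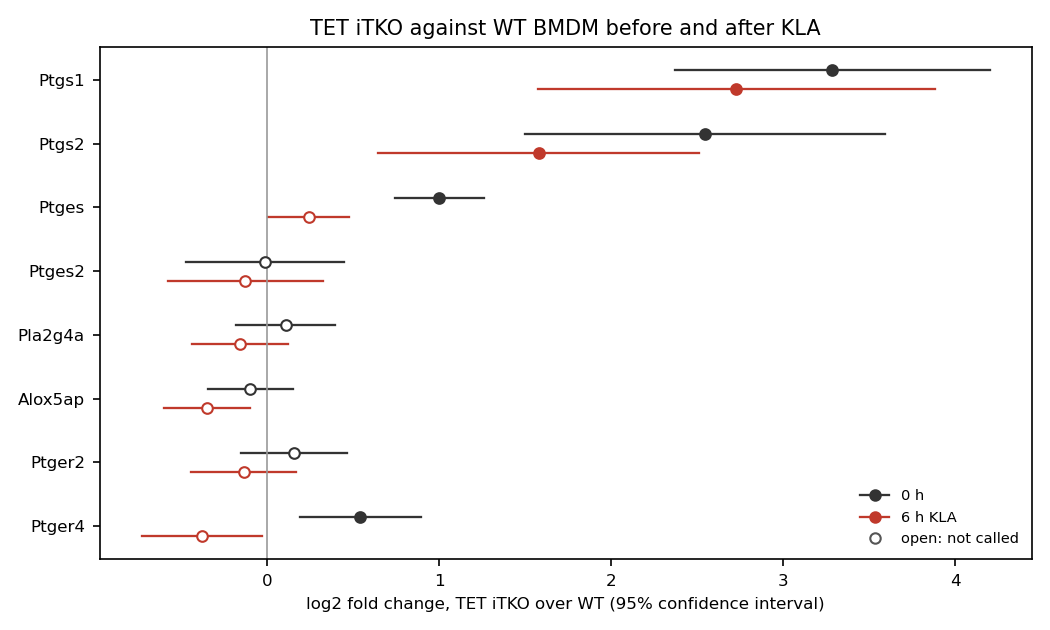
Difference between TET iTKO and WT BMDMs (log2 fold change with 95% confidence interval) at 0 h in black and after 6 h of KLA in red for 8 members, with open points for genes that were not called. Ptgs1 and Ptgs2 lie to the right at both times, at 3.28 and 2.54 before KLA and 2.73 and 1.58 after, and Ptges moves from 1.00 to 0.24.

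The KLA response of Ptges was smaller in TET iTKO than in WT, with a difference of responses of -0.76 ± 0.18 on the log2 scale (interval -1.11 to -0.41, adjusted p = 0.00920). It was the only member called in this test of the difference itself, in which 0.426% of all tested genes were called, 0.0492% with a larger and 0.377% with a smaller value in TET iTKO. WT libraries rose from a lower level (434 and 469) to nearly the level that TET iTKO libraries reached from 893 and 918. The call was lost in edgeR (adjusted p = 0.259) and without WT 0 h replicate 1 or 2, TET iTKO 0 h replicate 1 or 2, TET iTKO 6 h replicate 1 or WT 6 h replicate 2 (adjusted p from 0.0631 to 0.282, difference from -0.82 to -0.59). Ptger4 had a difference of -0.92 ± 0.25 (interval -1.42 to -0.42, adjusted p = 0.0616), and with the replicate block nested in genotype it was -0.89 and called (adjusted p = 0.00301), as it was without WT 6 h replicate 2 (-1.18, adjusted p = 0.000359). For Ptgs2 the difference was -0.97 with an interval from -2.37 to 0.44, which includes 0.

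The RPKM ratio of Ptgs2 to Ptgs1 was 1.25 and 1.08 in WT and 0.566 and 0.807 in TET iTKO at 0 h, so that Ptgs1 was the more abundant in both resting TET iTKO libraries. At 6 h it was 379 and 206.5 in WT and 81.5 and 145 in TET iTKO. In the Tdg cohort the ratio was 1.05 and 2.19 in WT and 0.543 and 1.75 in TDG iKO at 0 h, and 355 and 336 in WT and 63.9 and 1398 in TDG iKO at 6 h. These ratios rest on few Ptgs1 counts after KLA and were not tested.

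Loss of TDG changed no member beyond the threshold in BMDMs. DESeq2 called 0 of the 10 genes at 0 h, at 6 h and for the change of the KLA response, where it called 0% of all tested genes, and 0 members had an unadjusted p under 0.05. edgeR likewise called 0 members, with 0 at an unadjusted p under 0.05. Without WT 0 h replicate 1, 1177 genes were called at 0 h and 245 for the change of the response, among them 0 members. At 0 h Ptgs2 had 26.6 and 32.2 normalised counts in WT and 20.2 and 23.1 in TDG iKO (log2 fold change -0.41, interval -1.32 to 0.51). Ptges had 155 and 451 against 90.8 and 216 (-0.97, interval -2.05 to 0.11). At 6 h the values were 0.16 for Ptgs2 (interval -0.55 to 0.87) and -0.35 for Ptges (interval -1.41 to 0.71), and the change of the KLA response was 0.57 (interval -0.60 to 1.73) and 0.62 (interval -0.89 to 2.13). These intervals are wide, and the data are compatible with any difference inside them.

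In the Tdg cohort TDG iKO replicate 1 lay above TDG iKO replicate 2 for Ptgs1, Alox5 and Ltc4s. At 0 h it had 34.9 normalised counts of Ptgs1 against 12.4 in replicate 2, 38.5 against 3.76 of Alox5, and 16.5 against 4.84 of Ltc4s, and at 6 h it had 27.9 against 2.32, 26.7 against 3.09 and 21.9 against 3.86. Neutrophil and granulocyte precursor markers summed to 567 and 503 CPM in replicate 1 at 0 h and 6 h and to 34.3 and 30.7 CPM in replicate 2. In WT of the same cohort they summed to 180.5 and 216 CPM in replicate 1 and 41.9 and 26.2 CPM in replicate 2. For these markers replicate 1 was thus the higher in both genotypes. The 3 genes did not all follow in WT. At 0 h WT replicate 1 was above replicate 2 for Ptgs1 (23.7 and 13.8 normalised counts). It was below replicate 2 for Alox5 (14.2 and 18.4) and Ltc4s (15.2 and 23.01). At 6 h WT replicate 1 was below replicate 2 for Ptgs1 (5.93 and 7.12). It was above replicate 2 for Alox5 (11.9 and 5.54) and Ltc4s (14.2 and 5.54). The part of such cells in the 3 genes was not tested.

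The difference between the TET and TDG effects was tested with each knockout against its own WT. At 0 h Ptgs2 was called (2.96 ± 0.66, interval 1.67 to 4.25, adjusted p = 0.00415), 1 of 10 members, where 0.355% of all tested genes were called, 0.282% above 0 and 0.0728% below. That call was lost in edgeR (adjusted p = 0.379), without TET iTKO 0 h replicate 2 (2.55, adjusted p = 0.230) and without WT 0 h replicate 2 of the Tet cohort (2.83, adjusted p = 0.15). Ptges had a difference of 1.97 ± 0.64 (adjusted p = 0.239) and was called without WT 0 h replicate 1 (2.56, adjusted p = 0.000143) or TDG iKO 0 h replicate 2 of the Tdg cohort (2.72, adjusted p = 0.0161). At 6 h 0 members were called, where 0.0765% of all tested genes were (0.0459% above 0, 0.0306% below), and 1 member in DESeq2 and 1 in edgeR had an unadjusted p under 0.05. That member was Ptgs2, at 1.43 ± 0.54 (adjusted p = 0.801), while Ptges was at 0.60.

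In Th2 cells TDG loss changed none of the 10 genes beyond the threshold. DESeq2 called 0 members, where it called 0% of all tested genes, with 0 members at an unadjusted p under 0.05, and edgeR called 0 of the 4 members it tested, with 0 at an unadjusted p under 0.05. The prostaglandin E2 receptor Ptger2 had 148, 232 and 427 normalised counts in WT and 308, 283 and 606 in TDG iKO, the last value of each being the sum of replicates 3 and 4 (log2 fold change 0.56 ± 0.48, interval -0.38 to 1.51). The groups overlapped, although each TDG iKO sample was above the WT sample of the same number. With the replicate number as a block the value was 0.60 and not called (adjusted p = 0.398), and with replicates 3 and 4 kept as separate libraries in the blocked fit it was 0.57 and called (adjusted p = 0.0210). Ptger4 had 831, 888 and 981 against 786, 865 and 1077 (0.01), and Ptges2 138, 175 and 107 against 136, 160 and 126 (0.02). Alox5ap had 12.6 to 39.9 normalised counts in WT and 11.9 to 34.6 in TDG iKO, and the other 6 genes had at most 12.5.

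Most of the synthesis genes were far lower in WT Th2 cells than in resting WT BMDMs. Of the 10 genes 8 were lower and 0 higher in Th2 cells, where 54.8% of all tested genes were called, 29% higher and 25.8% lower. edgeR tested 8 of the 10 and called 6 lower, all but Alox5 and Ltc4s, which it did not test. Cell type, culture and library preparation cannot be told apart in this comparison. Alox5ap was 311-fold lower (log2 fold change -8.28 ± 0.51, adjusted p = 1.94e-57), Ptges 74.5-fold (-6.22 ± 0.66, adjusted p = 4.45e-20), Ptgs1 17.2-fold (-4.10 ± 0.97, adjusted p = 7.74e-05) and Ptges2 1.72-fold lower (-0.78 ± 0.29, adjusted p = 0.0160). Without WT Th2 replicate 2 or 4 the Ptgs1 value was lower by over 1.5 times, reaching -4.79 on the log2 scale. Pla2g4a had 0 counts in the 4 WT Th2 libraries, against 2316 in the 4 WT BMDM libraries, and was at least 922-fold higher in BMDMs when 3 counts over the group are taken as the floor. Ptgs2 had 1 count against 85, a ratio of 102 (95% exact interval for counting error only, 17.7 to 4058), and Ltc4s 2 counts against 43, a ratio of 25.7 (6.69 to 219).

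Alox5 was 7.77-fold lower in Th2 cells (log2 fold change -2.96, adjusted p = 0.0135, and -3.80 without WT Th2 replicate 1), a call lost without WT Th2 replicate 2 (-2.47, adjusted p = 0.0744) or WT 0 h replicate 1 of the Tdg cohort (-2.72, adjusted p = 0.0689) and against BMDMs of the Tet cohort alone (-1.85, adjusted p = 0.273). The Ptges2 call was lost without WT Th2 replicate 1 (-0.76, adjusted p = 0.0867) or WT 0 h replicate 2 of the Tet cohort (-0.79, adjusted p = 0.0675), and against BMDMs of either cohort alone (-0.93, adjusted p = 0.0592 for Tdg, and -0.73, adjusted p = 0.0523 for Tet). The receptors did not pass the test. Ptger2 was at -0.74 ± 0.38 (adjusted p = 0.0892) and Ptger4 at 0.04 ± 0.18 (interval -0.31 to 0.40, adjusted p = 0.850), a value whose sign changed with the scaling (-0.048 with TMM factors).

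A list of 52 further genes of the pathway was followed. In TET iTKO at 0 h 29 of the 52 were tested, 1 rose and 3 fell, where 4.38% of all tested genes rose and 3.12% fell. The prostacyclin receptor Ptgir rose from 122.6 and 115.4 to 246.2 and 282.3 normalised counts (log2 fold change 1.16 ± 0.20, adjusted p = 8.95e-07). Ptgr1, a reductase that inactivates prostaglandins and leukotriene B4, fell from 752.6 and 759.3 to 476.6 and 473.7 (-0.67, adjusted p = 0.00235), a call lost without TET iTKO 0 h replicate 2 or either WT 0 h library (adjusted p from 0.0777 to 0.111). The phospholipases Pla2g7 (-0.36, adjusted p = 0.0206) and Pla2g2e (-0.84, adjusted p = 0.0213) also fell, calls that were lost without either WT 0 h library or TET iTKO 0 h replicate 2 (adjusted p from 0.184 to 0.615), and for Pla2g2e also without TET iTKO 0 h replicate 1 (0.215). The list's median log2 fold change was 0.07, beside 0.01 over all genes.

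At 6 h 26 of the 52 were tested, 1 rose and 4 fell in TET iTKO, where 3.24% of all tested genes rose and 3.34% fell. Hpgds, the prostaglandin D synthase of blood cells, was higher at 1887 and 1687 normalised counts against 1187 and 1255 in WT (0.55, adjusted p = 0.000202). Ptgr1 (-0.96, adjusted p = 2.40e-06), Pla2g7 (-0.47, adjusted p = 0.000972), Pla2g15 (-0.44, adjusted p = 0.0361) and the thromboxane synthase Tbxas1 (-0.41, adjusted p = 0.0424) were lower. The Pla2g7 call was lost without TET iTKO 6 h replicate 2 (adjusted p = 0.111), and those of Pla2g15 and Tbxas1 without WT 6 h replicate 1, TET iTKO 6 h replicate 2 or any library at 0 h (0.0715 to 0.605), for Pla2g15 also without TET iTKO 6 h replicate 1 (0.0982). Of the list 0 genes were called for the change of the KLA response by TET loss (29 tested), for TDG loss in BMDMs at either time or its change of the response (41 tested), or for TDG loss in Th2 cells (38 tested). Between the TET and TDG effects Ptgir alone was called at 0 h, of 25 tested (1.32, adjusted p = 0.00310, and 0.178 in edgeR), a call lost without WT 0 h replicate 2 or TET iTKO 0 h replicate 2 of the Tet cohort or TDG iKO 0 h replicate 2 (0.125 to 0.212), and 0 of 33 at 6 h.

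With KLA 27 of the list were tested in WT of the Tet cohort, where 4 rose and 9 fell (13.1% and 11.1% of all tested genes), and 26 in TET iTKO, where 4 rose and 7 fell (12.8% and 11.6%). Ptgir rose by 2.03 (log2) in WT and 1.05 in TET iTKO, the prostaglandin exporter Abcc4 by 1.56 and 1.61, and the leukotriene C4 exporter Abcc1 by 0.86 and 0.96. Lysosomal phospholipase Pla2g15 had log2 fold changes of -1.39 and -1.52, Hpgds of -1.13 and -0.65, and Tbxas1 of -0.94 and -1.14. In the Tdg cohort 28 were tested, and 3 rose and 4 fell in WT (5.29% and 3.32% of all tested genes) and 1 rose and 3 fell in TDG iKO (4.27% and 2.81%). Ptgir had 1.53 in WT and 1.22 in TDG iKO, Hpgds -1.11 and -1.0, Pla2g15 -1.67 and -1.48, and Tbxas1 -0.90 and -0.91, while Abcc4 (1.73) and Abcc1 (1.36) were called in WT, at 2.51 and 2.22 without WT 0 h replicate 1. Several Tdg cohort calls rested on single libraries: without WT 6 h replicate 2 Hpgds, Pla2g15, Abcc4, Tbxas1 and Abcc1 were not called in WT (adjusted p from 0.0619 to 0.506), nor was Abcc1 without WT 6 h replicate 1 (0.201) or Tbxas1 without WT 0 h or 6 h replicate 1 (0.0778 and 0.111). In TDG iKO the Hpgds call was lost without any of its 4 libraries (0.0542 to 0.0808), as was that of Tbxas1 (0.0543 to 0.513), those of Ptgir and Pla2g15 without 6 h replicate 2 (0.169 and 0.191), of Ptgir also without 6 h replicate 1 or 0 h replicate 2 (0.0830 and 0.238) and of Pla2g15 also without 0 h replicate 1 (0.167).

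Between WT Th2 cells and resting WT BMDMs 33 of the 52 were tested, 11 higher and 11 lower in Th2 cells, where 29% of all tested genes were higher and 25.8% lower. Dpep2, which converts leukotriene D4, was lower (log2 fold change -7.10 ± 0.42), as was Pla2g15 (-3.72 ± 0.30). Pla2g7 and Tbxas1 were also called lower and had 1 count each in all WT Th2 libraries. Mgst2 (4.42 ± 0.42), a microsomal glutathione transferase, and Lta4h (1.83 ± 0.20), the leukotriene A4 hydrolase, were higher in Th2 cells. Mgst3, of the same family as Mgst2 and added here after its value was seen, was lower (-2.20 ± 0.46, adjusted p = 6.97e-06).

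Genes whose pattern over the 16 BMDM libraries was most like that of a member were found by Pearson correlation of log2 values over 9474 or 9475 other genes, as a description. Ptgs2 was most like Icam1 (r = 0.988), Vasp (0.988), Cebpd (0.987), Birc3 (0.985) and Cd69 (0.985). Ptges was most like Sod2 (0.994), Clec4e (0.987) and Relb (0.984). All 16 points share the step from 0 h to 6 h, with 8 libraries at each time. Ptgs1, higher in TET iTKO, was most like Parvg (0.900), Zfp322a (0.833) and Cttn (0.827), and Ptger4 less closely like Rnd3 (0.788), Serpinb8 (0.763) and Def8 (0.758).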

How the data were processed

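PolyA+ RNA of 16 BMDM and 8 Th2 libraries was sequenced in pairs of reads with a directional kit. Per the labels and the study's methods, the authors aligned reads to mm9 with HISAT2, counted them with HTSeq and deposited raw counts per gene symbol. Versions, annotation and strand setting of these steps are not given in the sources used here, and the authors ran DESeq2 1.30.0. The 5 tally rows of each file (32.8% to 51.6% of a library) were left out.

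Here counts were fitted with DESeq2 1.42.0 (Wald test, median-of-ratios factors, Benjamini-Hochberg adjusted p under 0.05 over all genes tested) in R 4.3.3, with edgeR 4.0.16 as an alternative. Fits held the 8 libraries of a cohort, all 16 BMDM libraries for the difference of effects, the Th2 samples, or WT Th2 and WT BMDM 0 h samples. RPKM used union exon lengths of GENCODE vM1 on mm9 and assigned counts as the library total. Python 3.11.15 and pandas 2.3.3 made the tables. The scripts were tested on simulated data. There the share of false calls by DESeq2 lay well above the threshold in the Tdg cohort, Th2 and Th2 against BMDM designs. That of edgeR lay near it in these designs, so edgeR counts of members are given beside those calls. For the list of 52 further genes no edgeR counts are given in these designs, and its DESeq2 calls there carry this limit. In the Tet cohort design the share of false calls was 7.73% for DESeq2 and 8.85% for edgeR, also above the threshold. Each simulation tested a plain comparison of groups. The change of the KLA response and the fit of all 16 BMDM libraries were not simulated.

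Replicates 3 and 4 of each Th2 genotype had a mean chi-square per gene of 1.34 (TDG iKO) and 1.51 (WT), against 21.3 to 218 for other Th2 pairs, and were summed. Sample titles do not say whether replicates are separate animals, so p-values measure the spread between these samples, which may be technical. Intervals on counts cover counting error only. Same-numbered 0 h and 6 h libraries of the Tet cohort carry the same number in the deposited names. That number differs between replicates and was read as that of the animal. The deviations of these libraries from group means correlated at 0.518 (WT) and 0.442 (TET iTKO). Those of same-numbered Th2 samples correlated at 0.510, 0.733 and 0.919. The main fits had no block for these numbers and so left this pairing out, and blocked fits were run as alternatives.

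The members and lists were chosen with earlier results of these data known. All 10 members are named. Of the 52 further pathway genes, those called whose mean normalised count reached 50 are named, at most 6 per comparison by adjusted p. Most-like genes passed the same minimum (5 for Ptgs2, 3 for other members called for TET loss). Alternatives were TMM factors, edgeR, a minimum of 10 counts in 2 libraries, fits of only the libraries compared, replicate blocks and leaving out each library. Counts of Ptger4, Ltc4s, Ptger2 and Ptges are uncertain where other annotated genes overlap them (Ttc33, Gm15937, Gm16641, Gm17173 and the pseudogene Gm13400).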

Additional observations from a re-analysis of the deposited data

Results flagged for a closer look

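The KLA response of Ptges differed between TET iTKO and WT BMDMs by -0.76 on the log2 scale, in a test of the difference itself (interaction term, DESeq2, adjusted p = 0.00920). The effects of TET and TDG loss on Ptgs2 at 0 h differed by 2.96 on the log2 scale, again in a test of the difference itself (DESeq2, adjusted p = 0.00415). Both calls were lost in edgeR and without some single libraries, as given with the results.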

How the results depend on the processing

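With 2 libraries a group, several calls rested on 1 library, and Alox5 and Ltc4s had too few counts for a call within BMDMs. Members called for TET loss at 6 h numbered 2, with 1 in a fit of only the 4 libraries compared and 0 to 5 when 1 library was left out. For the change of the KLA response by TET loss 1 member was called, with 0 in edgeR, 2 with TMM factors, 2 with the replicate block, 2 with the block nested in genotype and 0 to 1 without 1 library. For TET against TDG at 0 h 1 was called, with 0 in edgeR, 2 with the replicate block and 0 to 3 without 1 library (Ptgs2, Ptges and Pla2g4a without WT 0 h replicate 1 of the Tdg cohort), and at 6 h the replicate block gave 1 in place of 0. In Th2 cells TDG loss gave 1 (Ptger2) with replicates 3 and 4 separate and the replicate block. For the Tdg cohort, where 2 replicates share only a number (correlations of same-numbered libraries 0.333 to 0.814), the block gave -1.03 for Alox5ap after KLA in WT (adjusted p = 0.00243). The block changed no other count of members called by over 1.5 times.

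Directions that changed were all of members not called. Ptger4 in Th2 cells against BMDMs was -0.048 with TMM factors, -0.072 against BMDMs of the Tet cohort and -0.020 to 0.12 without 1 library. Without 1 library the log2 fold change for TET loss at 0 h ran from -0.15 to 0.14 for Ptges2, -0.073 to 0.26 for Pla2g4a and -0.25 to 0.038 for Alox5ap, and at 6 h from -0.28 to 0.052 for Ptges2. For TDG loss it ran from -1.72 to 0.0059 for Ptges at 0 h, -0.33 to 0.53 for Ptgs2 at 6 h and -0.35 to 1.37 for the change of the Ptges response, and in Th2 cells from -0.16 to 0.21 for Ptges2 and -0.13 to 0.11 for Ptger4, where leaving out summed replicates 3 and 4 was chosen after seeing the data. The cause was not tested.

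Over all genes, edgeR called 413 against 1001 for KLA in WT of the Tdg cohort (1809 with the block, 1822 nested, 350 to 2218 without 1 library), 346 against 824 in TDG iKO (1375 with the block, 1312 nested, 376 to 1104 without 1 library), 1 against 52 for the change of the KLA response by TET loss (90 with the block, 225 nested), and 0 against 39 and 1 against 10 for TET against TDG at 0 h and 6 h (186 and 101 with the block). The block gave 15 in place of 0 for TDG loss in Th2 cells. Without WT 0 h replicate 1 of the Tdg cohort 2403 genes were called for TET against TDG at 0 h.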
